A study of Rattus norvegicus with 13 samples.

Results

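Elastic fibre and microfibril genes were examined as a set of 10: Fbn1, Eln, Mfap4, Mfap5, Fbln1, Fbln2, Fbln5, Efemp1, Efemp2 and Emilin1. They were found on the array through the RefSeq accession beside each probe, and 13 probes of 9 of them were measured, out of 13351 genes that could be given a symbol. No probe was matched to Fbln2 by accession, so Fbln2 is not analysed here. Fbn1, Fbln1, Efemp1 and Emilin1 each had a pair of probes, and every probe is reported. All 13 probes were well above background on all 13 arrays, so each passed the filter on dim probes.

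Elastic fibres are extracellular fibres that let a tissue stretch and recoil. They form when tropoelastin, the product of Eln, is deposited and cross-linked on a scaffold of microfibrils built from fibrillin, and fibulins, microfibril-associated proteins and emilins stand at the contact of the elastin core and the microfibrils. Microfibrils also hold latent TGF-beta in the matrix, and in the mammary gland these proteins are made largely by stromal cells around ducts and vessels.

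The samples were female Sprague-Dawley rats, an outbred stock that develops mammary tumours after irradiation. IR-3W carcinomas (4 arrays) came from animals given whole-body caesium gamma rays, 2 Gy at 0.6 Gy per minute, at 3 weeks of age, before puberty. IR-7W carcinomas (6 arrays) came from animals given the same dose at 7 weeks, after puberty. From week 9 the rats ate an AIN-76A diet with 23.5% corn oil, and palpable tumours were taken at 50 weeks. Normal mammary tissue (3 arrays) came from animals that were not irradiated. One label gives those animals as 7 weeks old and another as matched in age, and no label gives their diet separately, so age and diet differences between carcinoma and normal tissue are not settled. Total RNA of whole tissue was hybridised with 1 dye, and no label states whether the samples of a group came from different rats. The p-values therefore cover only the variation among these samples, part of which may be technical.

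A level is the log2 of the processed signal minus the 75th percentile of its array, so 0 is the brightness of the array's 75th percentile, and levels of different probes are not set against each other. Carcinoma arrays were brighter, with a 75th percentile of 276 to 1242 against 82.3 to 179 on normal arrays, and 58 to 71% of spots well above background against 48.7 to 54.2% on normal arrays. The slope of the spike-in controls was 0.924 to 0.987 on carcinoma arrays and 0.759 to 0.845 on normal arrays. The 3 normal samples shared slide 4, which held no carcinoma and was read in another scan on another scanner, so slide and scanner cannot be told apart from the difference between carcinoma and normal tissue. Slide 2 held both carcinoma groups, with IR-3W 1 and 2 and IR-7W 1 and 5. Slide 1 held only IR-7W 2, 3, 4 and 6, and slide 3 only IR-3W 3 and 4. For these arrays slide and carcinoma group cannot be told apart. In whole tissue, fewer cells of a type and less RNA per cell cannot be told apart. Luminal epithelial markers were present throughout, with 5 of 5 tested markers well above background on all arrays, Epcam, Krt8 and Krt18 among them.

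Promoter sequence was at hand for 6 members (Fbn1, Mfap5, Fbln2, Fbln5, Efemp1 and Efemp2) from RefSeq, build GRCr8. The 250 bases before the start of Mfap5 and of Efemp1 are shown because of their calls in IR-7W carcinomas. Both genes were lower than normal tissue there, at a limma adjusted p under 0.05, in every alternative setting tried. For Efemp1 this held on 1 of its probes. Both lie on the plus strand, at chr4:157399669-157399918 and chr14:106811614-106811863. Capitals mark motifs found by their letters on either strand. In Mfap5 this is a CCAAT box (CCAAT). In Efemp1 it is a loose AP-1 pattern (TGANTCA, N being any base, here A), followed by a GC box (GGGCGG).
Mfap5: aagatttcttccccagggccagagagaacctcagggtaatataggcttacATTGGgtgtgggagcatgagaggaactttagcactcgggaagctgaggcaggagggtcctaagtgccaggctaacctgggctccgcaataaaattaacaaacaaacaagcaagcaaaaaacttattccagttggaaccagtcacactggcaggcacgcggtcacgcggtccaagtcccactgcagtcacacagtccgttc
Efemp1: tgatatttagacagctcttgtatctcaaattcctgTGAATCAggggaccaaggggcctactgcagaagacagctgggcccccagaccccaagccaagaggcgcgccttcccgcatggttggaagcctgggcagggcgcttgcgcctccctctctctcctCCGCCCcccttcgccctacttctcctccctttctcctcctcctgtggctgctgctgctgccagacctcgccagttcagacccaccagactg
The CCAAT box of Mfap5 lies on the opposite strand, 200 to 196 bases before the start. In Efemp1 the match to the AP-1 pattern lies 215 to 209 bases before the start. The GC box lies 91 to 86 bases before it, on the opposite strand. Of 33469 promoters of this length, 34.0% held a CCAAT box, 30.5% a GC box, 6.34% the AP-1 pattern and 12.9% a TATA box (TATAAA). Of the 6 members, 2 held a CCAAT box, 4 a GC box and 1 the AP-1 pattern. The TATA box letters were not found in these windows. These are letter matches, and nothing about binding was measured.

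Against normal tissue, IR-7W carcinomas had lower levels of several genes of the set, and IR-3W carcinomas of Efemp1. Of the 13 probes, 5 fell in IR-7W carcinomas, from 4 genes: Mfap5, Fbln5, Efemp1 on both probes and Fbn1 on 1 of 2 probes. Over all probes tested, 8.63% passed as lower in that comparison and 20.8% passed in either direction, at a limma adjusted p under 0.05. In IR-3W carcinomas 2 of the 13 probes passed, both of Efemp1 and both lower, where 5.37% of all probes passed as lower and 14.7% passed in either direction. At an unadjusted p under 0.05 it was 6 of the 13 for IR-7W minus normal, against 34.6% of all probes, and 5 of the 13 for IR-3W minus normal, against 29.6%. The median difference of the 13 probes was -1.12 for IR-7W minus normal and 0.07 for IR-3W minus normal, beside -0.01 over all probes in each. Both comparisons use the same 3 normal arrays.

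Between the carcinoma groups, 11 of the 13 probes had a positive difference for IR-3W minus IR-7W, and the median was 1.19 beside -0.02 over all probes. Mfap4 was the probe that passed, where 0.625% of all probes passed as higher and 0.789% in either direction. At an unadjusted p under 0.05 it was 7 of the 13, against 12.4% of all probes. The levels of 3 probes (Fbn1 A_44_P996061, Eln and Mfap4) did not overlap between the carcinoma groups and were higher in IR-3W, against 1.48% of all probes. The 2 probes with a negative difference were those of Efemp1.

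**Figure D1:**
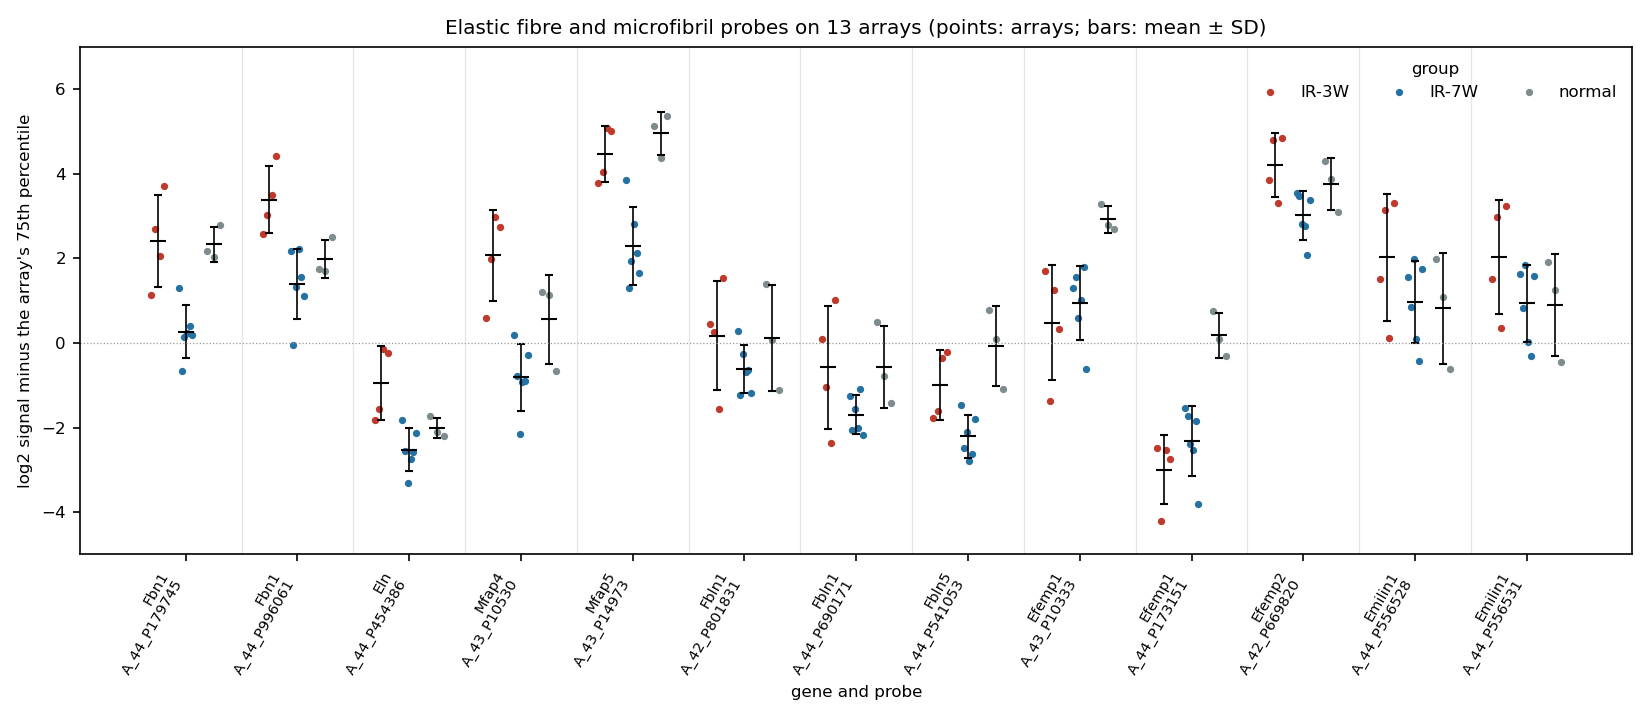
Level of each probe (log2 scale, relative to the 75th percentile of its array) on every array, grouped by gene and probe, with IR-3W, IR-7W and normal from left to right; points are arrays and bars are the mean ± SD. All IR-7W points of Mfap5 (1.31 to 3.86) lie below its normal points (4.39 to 5.36), and on both Efemp1 probes every carcinoma point lies below every normal point.

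**Figure D2:**
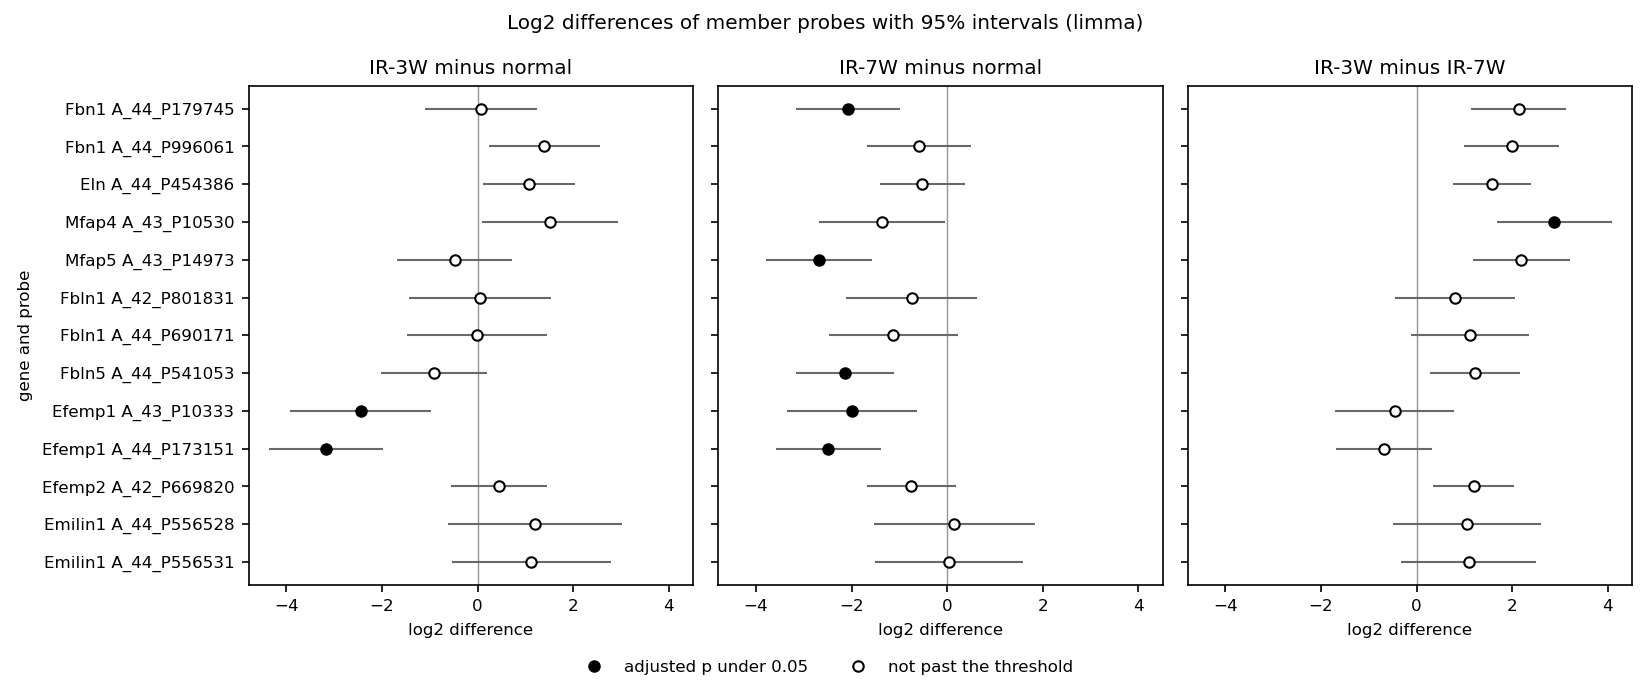
Log2 differences of the 13 probes with 95% intervals in the 3 comparisons; filled points had an adjusted p under 0.05. For filled points, 5 lie left of 0 for IR-7W minus normal, 2 for IR-3W minus normal, and 1 lies right of 0 for IR-3W minus IR-7W.

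Elastin forms the core of the fibre. Eln stood at -1.81, -1.57, -0.14 and -0.24 in IR-3W carcinomas 1 to 4, at -3.31 to -1.83 with a median of -2.57 in IR-7W carcinomas, and at -1.73, -2.09 and -2.19 in normal tissues. Every IR-3W carcinoma was above every IR-7W carcinoma, IR-3W 3 and 4 stood well above all other samples, and the normal tissues overlapped both groups. The mean was -0.94 ± 0.87 in IR-3W carcinomas, -2.52 ± 0.51 in IR-7W carcinomas and -2.01 ± 0.24 in normal tissue (SD, n = 4, 6 and 3). The difference IR-3W minus IR-7W was 1.58 ± 0.38 (SE; adjusted p = 0.0761), and against normal tissue it was 1.07 ± 0.44 for IR-3W (adjusted p = 0.129) and -0.52 ± 0.41 for IR-7W (adjusted p = 0.408). None of these passed, but Eln gained calls in each comparison under some alternatives. With normexp background correction IR-7W minus normal was -0.93 and passed (adjusted p = 0.00596), in a setting where the median of all probes was -0.55. With array weights IR-3W minus normal was 1.34 and passed (adjusted p = 0.0239). Between the carcinoma groups Eln passed without IR-3W 1 (1.87, adjusted p = 0.0241), with normexp (1.35, adjusted p = 0.00559), with array weights (1.84, adjusted p = 0.0171) and with slide as a random block (1.64, adjusted p = 0.0487). On slide 2 that difference was 0.51. The correlation within slides in the random block was -0.0583, so that block did not allow for arrays of a slide being alike. IR-3W 3 and 4, the samples high in Eln, shared slide 3, which held no other array.

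Fibrillin microfibrils form the scaffold, and Fbn1 encodes their main fibrillin. On probe A_44_P179745, Fbn1 stood at 1.13, 2.70, 2.06 and 3.72 in IR-3W carcinomas 1 to 4, at -0.67 to 1.29 with a median of 0.21 in IR-7W carcinomas, and at 2.17, 2.03 and 2.80 in normal tissues. All 6 IR-7W carcinomas lay below the 3 normal tissues, and IR-7W 1 alone reached the range of IR-3W carcinomas. The level fell in IR-7W carcinomas relative to normal tissue by 2.07 ± 0.50 on the log2 scale (SE), a 4.20-fold difference (adjusted p = 0.0119). Without normal tissue 3 this difference was -1.84 and its adjusted p 0.0564.

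The other Fbn1 probe, A_44_P996061, did not show that drop. It stood at 2.58, 3.02, 3.51 and 4.43 in IR-3W carcinomas 1 to 4, at -0.04 to 2.23 with a median of 1.45 in IR-7W carcinomas, and at 1.76, 1.70 and 2.50 in normal tissues. IR-3W carcinomas were here above every other sample, while IR-7W carcinomas and normal tissues overlapped. The difference from normal tissue was 1.40 ± 0.54 for IR-3W (SE; adjusted p = 0.101) and -0.59 ± 0.50 for IR-7W (adjusted p = 0.437). Non-overlapping higher levels in IR-3W carcinomas than in normal tissue were seen for 13.3% of all probes. The gap between the 2 Fbn1 probes ranged over the arrays from -1.99 to 0.41, with an SD of 0.75, so they disagree on where the normal tissues stand.

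On the contrast of the carcinoma groups the Fbn1 probes were closer, at 2.14 ± 0.46 (adjusted p = 0.0532) for A_44_P179745 and 1.99 ± 0.46 (adjusted p = 0.0661) for A_44_P996061, neither past the threshold. Within slide 2 the differences were 1.07 and 0.93. Without IR-3W 1 both passed, at 2.56 (adjusted p = 0.0107) and 2.26 (adjusted p = 0.0318), and without IR-7W 1 the A_44_P179745 probe passed at 2.35 (adjusted p = 0.0354).

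Mfap5 encodes a small glycoprotein that binds fibrillin along microfibrils. It stood at 3.79, 4.04, 5.08 and 5.01 in IR-3W carcinomas 1 to 4, at 1.31 to 3.86 with a median of 2.04 in IR-7W carcinomas, and at 5.12, 4.39 and 5.36 in normal tissues. IR-7W carcinomas were all below normal tissue, and IR-7W 1, the highest of them, was the only one to reach an IR-3W level. Its level fell by 2.67 ± 0.51 (SE) in IR-7W carcinomas relative to normal tissue, a 6.38-fold difference (adjusted p = 0.00303). This call held in all 23 alternative settings, some of which can change only the adjusted p. IR-3W carcinomas and normal tissue overlapped, with a difference of -0.48 ± 0.55 (95% interval -1.68 to 0.72, adjusted p = 0.603). Between carcinomas the difference IR-3W minus IR-7W was 2.19 ± 0.47 (adjusted p = 0.0517), and 0.91 within slide 2. It passed without IR-3W 1 (2.42, adjusted p = 0.0286) and without IR-7W 1 (2.51, adjusted p = 0.0157).

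Mfap4 encodes a fibrinogen-related protein that binds tropoelastin and fibrillin. It stood at 0.59, 2.00, 2.99 and 2.73 in IR-3W carcinomas 1 to 4, at -2.15 to 0.20 with a median of -0.84 in IR-7W carcinomas, and at 1.20, 1.14 and -0.66 in normal tissues. The carcinoma groups did not overlap, IR-3W 1 and IR-7W 1 being closest, and normal tissue 3 lay apart from the other normal tissues, among the IR-7W values. Mfap4 was higher in IR-3W than in IR-7W carcinomas, with a difference of 2.88 ± 0.55 (SE), or 7.38-fold (adjusted p = 0.0389). Within slide 2 the difference was 1.64, and no probe of the array passed in that fit of 2 against 2.

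The Mfap4 call was lost in 10 of the 13 fits that left out an array and kept in 3. It was kept without IR-3W 1 (3.38, adjusted p = 0.00762), without IR-7W 1 (3.08, adjusted p = 0.0312) and without normal tissue 3 (adjusted p = 0.0418). Its adjusted p was 0.0845, 0.0760 and 0.137 without IR-3W 2, 3 and 4. It was 0.0802, 0.0763, 0.0624, 0.0798 and 0.0602 without IR-7W 2, 3, 4, 5 and 6. It was 0.0567 and 0.0599 without normal tissues 1 and 2, and the difference was between 2.58 and 3.38 whichever array was left out. Against normal tissue neither carcinoma group passed, at 1.52 ± 0.66 for IR-3W (adjusted p = 0.142) and -1.36 ± 0.61 for IR-7W (adjusted p = 0.131). With array weights IR-7W minus normal was -1.74 and passed (adjusted p = 0.0192). Without IR-3W 1 the first of these was 2.02 and passed (adjusted p = 0.0481).

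Among the short fibulins, which bring elastin and microfibrils together, Efemp1 was lower in both carcinoma groups, Fbln5 in IR-7W carcinomas, and Efemp2 passed in neither. Efemp1 encodes a fibulin that in mice is needed for intact elastic fibres of the fascia. On probe A_44_P173151 it stood at -2.48, -4.22, -2.52 and -2.75 in IR-3W carcinomas 1 to 4, at -3.80 to -1.54 with a median of -2.12 in IR-7W carcinomas, and at 0.76, 0.08 and -0.31 in normal tissues. All 10 carcinomas lay below all 3 normal tissues, and IR-3W 2 and IR-7W 6 were the lowest of their groups. The level fell by 3.17 ± 0.55 (SE) in IR-3W carcinomas, or 9.01-fold (adjusted p = 0.00219), and by 2.49 ± 0.51 in IR-7W carcinomas, or 5.60-fold (adjusted p = 0.00463). Both calls held in all 22 alternatives, some of which can change only the adjusted p. The size of the difference depended on the setting. It ranged from -3.41 to -1.55 for IR-3W and from -2.73 to -1.69 for IR-7W carcinomas.

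On the other Efemp1 probe, A_43_P10333, the levels were 1.71, -1.38, 1.26 and 0.34 in IR-3W carcinomas 1 to 4, -0.61 to 1.80 with a median of 1.16 in IR-7W carcinomas, and 3.30, 2.79 and 2.71 in normal tissues. The order of the groups was alike on both probes, with no overlap of carcinoma and normal tissue and with the same arrays lowest. It fell by 2.45 ± 0.68 (SE) in IR-3W carcinomas (adjusted p = 0.0301) and by 1.99 ± 0.63 in IR-7W carcinomas (adjusted p = 0.0412). Non-overlapping lower levels were seen for 11.3% of all probes for IR-3W and 13.5% for IR-7W carcinomas.

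These A_43_P10333 calls were close to the threshold. For IR-3W minus normal the adjusted p was 0.0531 and 0.0628 without IR-3W 2 and 4, and 0.105, 0.0802 and 0.0626 without normal tissues 1, 2 and 3. For IR-7W minus normal it was 0.0532 without IR-3W 4, and 0.0540, 0.0715, 0.0598 and 0.0612 without IR-7W 1, 3, 4 and 6. It was 0.144, 0.101 and 0.0841 without normal tissues 1, 2 and 3. Between the carcinoma groups Efemp1 had differences of -0.46 ± 0.58 (adjusted p = 0.809) and -0.69 ± 0.47 (adjusted p = 0.604) on A_43_P10333 and A_44_P173151, and of -1.38 and -1.66 within slide 2. The first of these was 0.16 without IR-3W 2.

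Fbln5 encodes a fibulin that carries elastin to microfibrils and binds integrins. It stood at -1.78, -1.61, -0.35 and -0.20 in IR-3W carcinomas 1 to 4, at -2.79 to -1.46 with a median of -2.29 in IR-7W carcinomas, and at 0.77, 0.09 and -1.09 in normal tissues. IR-7W carcinomas were all below normal tissue, while IR-3W 3 and 4 were above normal tissue 3. The level fell by 2.13 ± 0.47 (SE) in IR-7W carcinomas relative to normal tissue, or 4.38-fold (adjusted p = 0.0074). Without normal tissue 1, the highest sample, the difference was -1.71 and the adjusted p 0.0519. IR-3W minus normal was -0.91 ± 0.51 (adjusted p = 0.257), and IR-3W minus IR-7W was 1.22 ± 0.43 (adjusted p = 0.258) and 0.34 within slide 2.

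Efemp2 encodes the fibulin that brings lysyl oxidase to tropoelastin. It stood at 3.85, 4.81, 3.31 and 4.86 in IR-3W carcinomas 1 to 4, at 2.07 to 3.56 with a median of 3.11 in IR-7W carcinomas, and at 4.30, 3.88 and 3.11 in normal tissues. The groups overlapped, with IR-3W 2 and 4 above every other sample. Differences were 0.44 ± 0.46 for IR-3W minus normal (adjusted p = 0.562), -0.75 ± 0.43 for IR-7W minus normal (adjusted p = 0.241) and 1.19 ± 0.39 for IR-3W minus IR-7W (adjusted p = 0.212). Within slide 2 the last was 1.52.

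Fbln1, a fibulin of the elastic fibre core and of basement membranes that also binds fibronectin, passed in none of the 3 comparisons of the fit described above and was spread widely within IR-3W carcinomas and normal tissue. On A_42_P801831 it stood at 0.46, 0.27, -1.56 and 1.54 in IR-3W carcinomas 1 to 4, at -1.23 to 0.28 with a median of -0.67 in IR-7W carcinomas, and at 1.40, 0.07 and -1.10 in normal tissues. IR-3W 4 was the highest and IR-3W 3 the lowest of all 13 samples. On A_44_P690171 the levels were 0.09, -1.05, -2.37 and 1.02 in IR-3W carcinomas, -2.18 to -1.10 with a median of -1.78 in IR-7W carcinomas, and 0.49, -0.77 and -1.42 in normal tissues. The same 2 IR-3W carcinomas were at the extremes, and all groups overlapped on both probes. Differences from normal tissue were 0.05 and -0.01 for IR-3W (adjusted p = 0.970 and 0.994) and -0.74 and -1.12 for IR-7W (adjusted p = 0.442 and 0.226). Their 95% intervals reach from -1.47 to 1.54 for IR-3W and from -2.48 to 0.63 for IR-7W. IR-3W minus IR-7W was 0.80 and 1.11 (adjusted p = 0.629 and 0.464), and 0.54 and 0.69 within slide 2. With array weights the A_44_P690171 probe gave 2.02 there and passed (adjusted p = 0.0352). Of the IR-3W carcinomas, that setting gave IR-3W 4, the highest sample, the largest weight (2.44).

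Emilin1 encodes a glycoprotein at the border of elastin and microfibrils that restrains the processing of TGF-beta. On A_44_P556528 it stood at 1.52, 3.14, 0.12 and 3.32 in IR-3W carcinomas 1 to 4, at -0.43 to 1.99 with a median of 1.21 in IR-7W carcinomas, and at 1.99, 1.08 and -0.60 in normal tissues. The groups overlapped, and IR-3W 2 and 4 were the highest samples, as for Efemp2. On A_44_P556531 the levels were 1.52, 2.98, 0.36 and 3.25 in IR-3W carcinomas, -0.30 to 1.85 with a median of 1.21 in IR-7W carcinomas, and 1.91, 1.25 and -0.44 in normal tissues. This probe tracked the first, with a gap of -0.24 to 0.16 over the arrays. Differences from normal tissue were 1.20 ± 0.84 for IR-3W (adjusted p = 0.369) and 0.15 ± 0.78 for IR-7W (adjusted p = 0.914) on A_44_P556528, and IR-3W minus IR-7W was 1.05 ± 0.71 (adjusted p = 0.601). Within slide 2 it was 1.76. On A_44_P556531 the differences from normal tissue were 1.12 ± 0.77 for IR-3W (adjusted p = 0.359) and 0.03 ± 0.71 for IR-7W (adjusted p = 0.980), and IR-3W minus IR-7W was 1.09 ± 0.65 (adjusted p = 0.544), and 1.59 within slide 2.

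**Figure D3:**
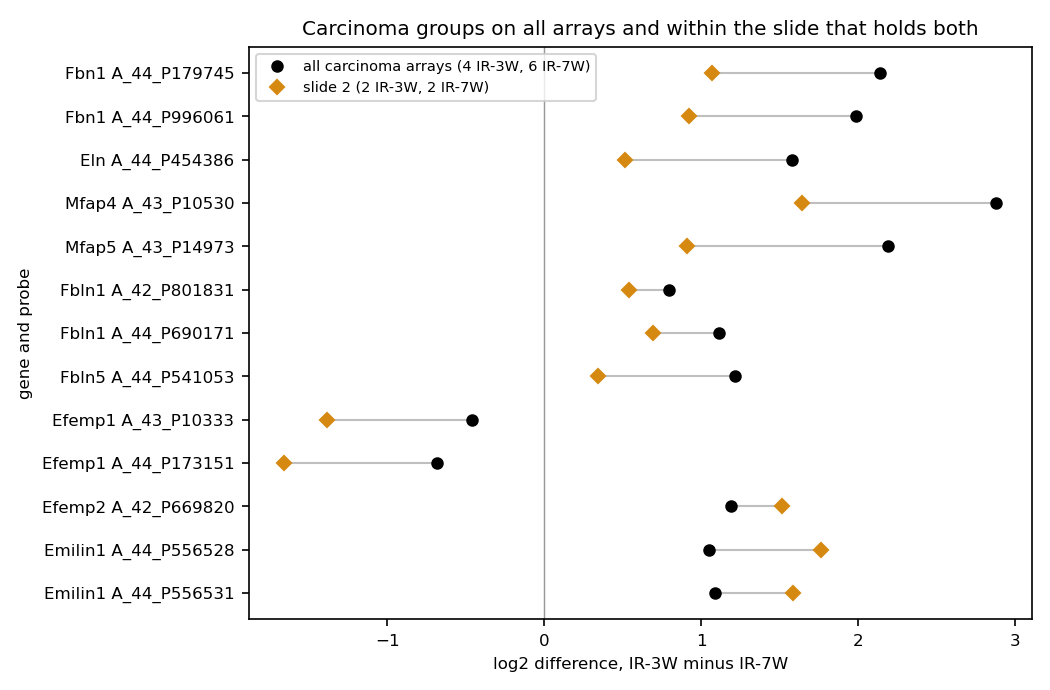
Difference IR-3W minus IR-7W of each probe over all carcinoma arrays (black, 4 against 6) and within slide 2 (orange, 2 against 2), on the log2 axis. The sign was the same for all 13 probes, with 11 above 0 in both, and Fbn1, Eln, Mfap4, Mfap5, Fbln1 and Fbln5 had smaller differences within the slide. The slide 2 arrays are also part of the black points, so equal signs are partly built in.

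Individual samples differed in which genes of the set were high. IR-3W 4 was among the highest samples for Fbn1, Mfap4, Fbln1, Efemp2 and Emilin1, whereas IR-3W 3 combined high Eln and Mfap4 with the lowest Fbln1, Efemp2 and Emilin1 of its group. IR-3W 3 had the lowest 75th percentile of the carcinoma arrays (276), and the part of that in these levels was not tested. Within groups the median SD of the 13 probes was 1.08 in IR-3W carcinomas, 0.79 in IR-7W carcinomas and 0.61 in normal tissue. The median over all probes was 0.61 in IR-3W carcinomas, 0.44 in IR-7W carcinomas and 0.38 in normal tissue.

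Some markers of other cell types also differed between the groups. A summed level is the log2 of the added unlogged levels of a list's tested markers, so its brightest probes weigh most. The summed level of fibroblast markers was 8.95 to 10.64 in IR-3W carcinomas, 7.26 to 8.46 in IR-7W carcinomas and 7.96 to 8.32 in normal tissue, so the carcinoma groups did not overlap. Of its 10 tested markers, 6 passed as higher in IR-3W than in IR-7W carcinomas, 5 were higher in IR-3W carcinomas than in normal tissue, and 3 were lower in IR-7W carcinomas than in normal tissue. Over all probes 0.625% passed as higher in the first comparison and 2724 of 29276 in the second, and 8.63% passed as lower in the third. Thy1, among the 5, was well above background on 4 of 4 IR-3W, 4 of 6 IR-7W and 0 of 3 normal arrays. It thus passed the filter on dim probes only through carcinoma arrays, and its call against normal tissue was partly built in. The defining markers Pdgfra, Col1a1 and Dcn were well above background on all arrays. Pdgfra averaged 2.52 ± 0.42 in IR-3W carcinomas, 1.06 ± 0.45 in IR-7W carcinomas and 2.72 ± 0.19 in normal tissue, a pattern over groups in which IR-7W was low, and Col1a1 averaged 7.19 ± 0.90, 5.83 ± 0.40 and 4.85 ± 0.09 in the same groups. The part of fibroblast markers in the results of the set was not tested.

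Adipocyte markers summed to 3.27 to 6.76 in IR-3W carcinomas, 3.099 to 3.73 in IR-7W carcinomas and 8.11 to 8.31 in normal tissue. Of 7 tested markers, 6 fell in IR-3W carcinomas and 7 in IR-7W carcinomas relative to normal tissue. Over all probes 5.37% passed as lower in IR-3W and 8.63% in IR-7W carcinomas, which also applies to the marker lists that follow. Adipoq averaged -5.04 ± 1.05 in IR-3W carcinomas, -4.46 ± 1.94 in IR-7W carcinomas and 5.23 ± 0.31 in normal tissue, and was well above background on 3 of 4 IR-3W, 4 of 6 IR-7W and 3 of 3 normal arrays. Fabp4 and Pparg were well above background on all 13 arrays. Cfd was the brightest adipocyte marker, at 4.25 in IR-3W, 3.06 in IR-7W and 7.46 in normal samples on average. Endothelial markers summed to 3.36 to 6.36 in IR-3W carcinomas, 2.91 to 3.63 in IR-7W carcinomas and 4.94 to 5.52 in normal tissue, and 2 of 7 fell in IR-3W and 6 of 7 in IR-7W carcinomas. Pecam1, Cdh5 and Tek were well above background on 11, 12 and 10 of the arrays. Kdr was the brightest endothelial marker and weighed most in the sum, at 4.40 in IR-3W, 3.15 in IR-7W and 5.10 in normal samples on average. The low adipocyte sums stand beside the lower Efemp1 levels of both carcinoma groups. Endothelial sums were likewise low in IR-7W carcinomas, but that of IR-3W 3, at 6.36, lay above every normal tissue. In IR-7W carcinomas both sums also stand beside lower Mfap5, Fbln5 and, on 1 of 2 probes, Fbn1. The part of these markers was not tested.

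Smooth muscle, pericyte and myoepithelial markers summed to 5.09 to 7.57 in IR-3W carcinomas, 5.18 to 7.01 in IR-7W carcinomas and 6.30 to 6.87 in normal tissue, and IR-3W 3 was the lowest sample and IR-3W 4 the highest, as for Fbln1. The keratin Krt14 was the brightest marker of that list, at 5.84 in IR-3W, 4.98 in IR-7W and 5.73 in normal samples on average. Of the 8 tested markers in the list, 3 fell in IR-3W carcinomas relative to normal tissue. Relative to IR-7W carcinomas 1 was lower in IR-3W carcinomas. In the latter comparison 48 of 29277 probes passed as lower. Macrophage markers summed to 4.88 to 6.73 in IR-3W, 4.02 to 5.16 in IR-7W and 6.27 to 6.74 in normal samples, with 1 of 6 lower in IR-3W and 3 of 6 lower in IR-7W carcinomas than in normal tissue. Luminal markers summed to 7.64 to 9.17 in IR-3W, 8.61 to 9.38 in IR-7W and 8.53 to 8.79 in normal samples, and skeletal muscle markers to 0.60 to 2.59, -0.36 to 2.96 and 0.90 to 1.60 in the same groups. Krt18 was the brightest luminal marker, at 7.77 in IR-3W, 8.45 in IR-7W and 8.24 in normal samples on average. The part of these lists in the results of the set was not tested.

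**Figure D4:**
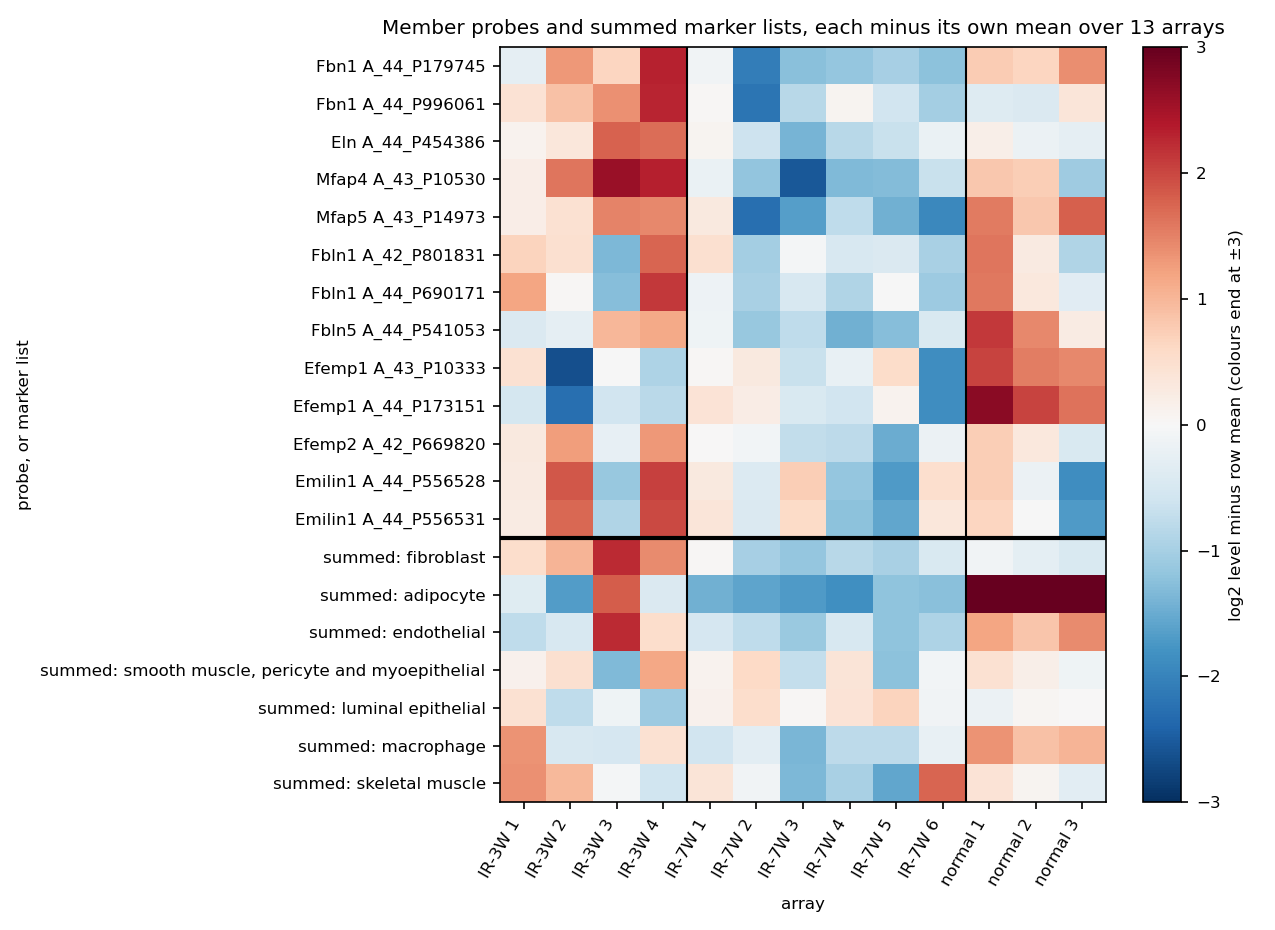
Level of each probe (upper rows) and of each summed marker list (lower rows) on the 13 arrays, each minus its own mean over the arrays, with colours ending at 3 on the log2 scale; arrays run IR-3W, IR-7W and normal from left to right. IR-3W 3 and 4 are high for Eln and Mfap4, IR-7W arrays are mostly low, and normal arrays are high for Efemp1 and for adipocyte markers.

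Relatives of the fibrillins and the latent TGF-beta binding proteins, which hold latent TGF-beta on microfibrils, were measured for 8 of 18 listed genes. Of the 8, 2 rose and 1 fell in IR-3W carcinomas relative to normal tissue, where over all probes 2724 of 29276 passed as higher and 5.37% as lower. Fbn2, the fibrillin of developing tissues, averaged 0.88 ± 0.97 in IR-3W carcinomas, -1.77 ± 0.96 in IR-7W carcinomas and -1.80 ± 0.42 in normal tissue (SD). It rose by 2.67 ± 0.62 (SE) in IR-3W carcinomas relative to normal tissue (adjusted p = 0.012) and was higher by 2.65 ± 0.52 in IR-3W than in IR-7W carcinomas (adjusted p = 0.0399), the only gene of the list to pass there. Ltbp2 averaged 0.04 ± 2.10 in IR-3W carcinomas, -0.26 ± 0.74 in IR-7W carcinomas and -2.91 ± 0.65 in normal tissue. It rose in IR-3W (2.95 ± 0.89, adjusted p = 0.0431) and IR-7W carcinomas (2.65 ± 0.83, adjusted p = 0.038). Ltbp1 fell in IR-7W carcinomas by 1.57 ± 0.47 (adjusted p = 0.0322). Mmrn1, an endothelial and platelet relative of the emilins, fell in IR-3W carcinomas by 3.02 ± 0.92 (adjusted p = 0.0443), where 1 of the 4 carcinomas measured it well above background, so the size of the fall rests mostly on levels near background.

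Genes of cross-linking, copper supply and assembly were measured for 12 of 14 listed, and 4 were higher in IR-3W than in normal tissue and 4 higher in IR-3W than in IR-7W carcinomas. Over all probes 2724 of 29276 passed as higher in the first comparison and 0.625% in the second. Bgn, a proteoglycan that binds tropoelastin, averaged 7.78 ± 0.58 in IR-3W carcinomas, 5.59 ± 0.45 in IR-7W carcinomas and 6.06 ± 0.38 in normal tissue. Its difference was 1.72 ± 0.36 for IR-3W minus normal (adjusted p = 0.00744) and 2.19 ± 0.31 for IR-3W minus IR-7W (adjusted p = 0.0135). Fn1, the fibronectin on which microfibrils assemble, gave 2.22 ± 0.52 (adjusted p = 0.0128) and 2.25 ± 0.44 (adjusted p = 0.0391) in those comparisons. Bmp1, the protease that activates lysyl oxidase, gave 1.09 ± 0.27 (adjusted p = 0.0184) and 1.39 ± 0.23 (adjusted p = 0.0224).

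Vcan, a proteoglycan that binds fibrillin and fibulins, rose in both carcinoma groups relative to normal tissue, by 3.82 ± 0.85 in IR-3W (adjusted p = 0.00943) and 3.34 ± 0.78 in IR-7W carcinomas (adjusted p = 0.00971). Its probe was well above background on 2 of the 3 normal arrays, so the size of these differences rests partly on a level near background. Dcn, a proteoglycan of collagen fibrils that also stands in the fibroblast list, fell in IR-7W carcinomas by 1.50 ± 0.27 (adjusted p = 0.00214) and was higher by 1.55 ± 0.25 in IR-3W than in IR-7W carcinomas (adjusted p = 0.021). The median of the 12 genes was 0.66 for IR-3W minus normal, -0.38 for IR-7W minus normal and 1.37 for IR-3W minus IR-7W, beside -0.01, -0.01 and -0.02 over all probes. Loxl1, a lysyl oxidase that acts on elastin, averaged 4.77 ± 0.56 in IR-3W carcinomas, 3.42 ± 0.49 in IR-7W carcinomas and 4.38 ± 0.28 in normal tissue, and its 1.35 ± 0.31 between the carcinoma groups missed the threshold (adjusted p = 0.0655).

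Elastin-degrading proteases and their inhibitors gave 11 tested genes of 12. Ctsk, a cathepsin that cleaves elastin, rose in IR-3W carcinomas relative to normal tissue by 1.84 ± 0.43 (adjusted p = 0.0132). The metalloproteinase inhibitors Timp1 and Timp2 fell in IR-7W carcinomas by 2.22 ± 0.47 (adjusted p = 0.00532) and 1.11 ± 0.26 (adjusted p = 0.0106). Timp1 was higher by 2.19 ± 0.43 in IR-3W than in IR-7W carcinomas (adjusted p = 0.0389). Of the list of receptors for elastic fibre proteins, 9 of 13 were tested. Cd36, placed in that list, is a fatty acid receptor found on fat and endothelial cells. Relative to normal tissue it fell by 4.39 ± 1.27 in IR-3W (adjusted p = 0.0356) and by 5.36 ± 1.17 in IR-7W carcinomas (adjusted p = 0.00679). Between the carcinoma groups 0 of the 9 receptors passed in limma, and 2 had an unadjusted p under 0.05. Over all probes 0.789% passed and 12.4% had such an unadjusted p.

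**Figure D5:**
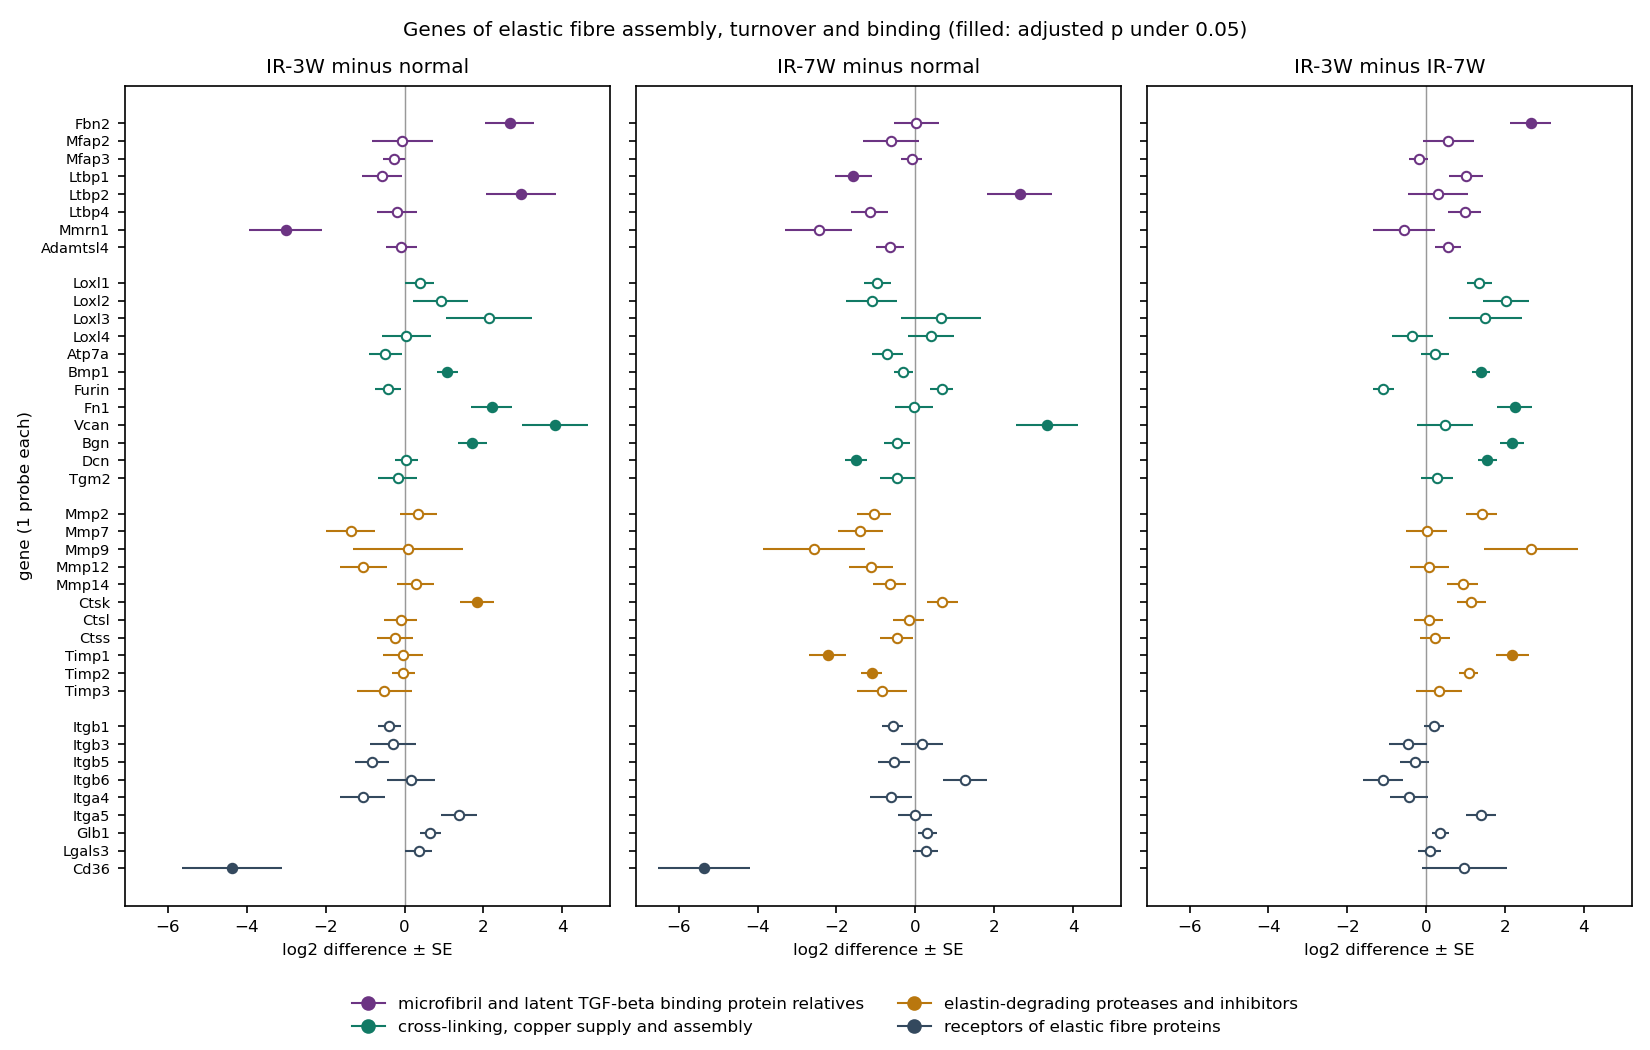
Log2 differences ± SE of 40 genes of elastic fibre assembly, turnover and binding in the 3 comparisons, coloured by list; filled points had an adjusted p under 0.05. Bmp1, Fn1, Bgn and Dcn are filled right of 0 for IR-3W minus IR-7W, and Timp1, Timp2, Dcn and Ltbp1 are filled left of 0 for IR-7W minus normal.

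The genes whose profile over the 13 arrays was most like a member's were taken by the smallest root mean square difference of log2 levels, each profile minus its own mean, among 10268 genes and with the brighter probe of a gene. Nearest to Eln were Loxl1 (0.31), Bmp1 (0.389) and Sparc (0.409). Nearest to Mfap4 were the collagens Col3a1 (0.511) and Col5a1 (0.632) and the carboxypeptidase Cpz (0.581). Mfap5 was nearest to the stromal surface protein Cd248 (0.383), the transcription factor Zeb2 (0.394) and Mmp23 (0.453), and Fbn1 to Slc2a3 (0.509), Bgn (0.532) and Snai1 (0.536). Fbln5 was nearest to Sparcl1 (0.394), She (0.403) and Klf2 (0.423), and Efemp2 to Fkbp14 (0.375), Krt14 (0.398) and Adamts7 (0.40). Emilin1 was nearest to Basp1 (0.496), Gpx3 (0.520) and Acvr1 (0.534), and Fbln1 to Capn12 (0.521), Fbxo27 (0.531) and Stard6 (0.556). Efemp1 stood apart, with Resp18 (0.614), Gzmk (0.649) and Lpar6 (0.667) nearest, and its nearest member, Fbln5, ranked 4089 at 1.30. Among members the closest were Efemp2 and Emilin1 (0.635), Fbn1 and Eln (0.678) and Fbln1 and Efemp2 (0.709). All 13 arrays, with their shared slides and group differences, enter these values, which are a description.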

How the data were processed

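Expression was measured on 13 Agilent rat arrays of 1 colour: 4 of IR-3W carcinomas, 6 of IR-7W carcinomas and 3 of normal tissue, grouped by sample titles. The authors' deposited files held a processed green fluorescence intensity per spot after background subtraction, made by Agilent Feature Extraction 10.7.3.1 per the file headers. A deposited set of log2 values, whose scale the sources used here do not state, lay within 0.01 of log2 signal minus the 75th percentile, set relative to the normal arrays' mean, for 99.4 to 99.6% of entries, after a constant shift per array. It served as an alternative, and 29.4 to 52.2% of its entries were blank.

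Control and outlier spots were left out. Of 45018 spots, 1639 were controls. The log2 intensity minus each array's 75th percentile was averaged over spots of a probe, and 29277 of 41012 probes were kept that were well above background on at least 3 arrays. Accessions, without versions, gave 16815 probes a symbol through RefSeq (GRCr8). No coordinates of probes are given, since the array's annotation used another build. All 13 arrays were fitted in limma 3.58.1 (lmFit, eBayes; R 4.3.3, version 1.17.8 of data.table), with 3 contrasts, two-sided tests and Benjamini-Hochberg adjustment over all probes (threshold 0.05). Promoters and figures used Python 3.11.15, pandas 2.3.3 and matplotlib 3.10.9.

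Members and lists were chosen with earlier results of these data known. Named were all member probes, passing genes of each related list (up to 6), the 3 nearest genes to each member, and defining markers. Loxl1 is named in addition, as nearest to Eln. For related genes the brightest probe was used. No label states that equal replicate numbers pair samples. Correlations of their deviations were -0.22 to 0.08 over 10 pairs, and -0.33 to 0.39 over 44 pairs of unlike number. With so few arrays these values cannot settle whether the numbers pair samples. Within groups, arrays correlated at 0.878 to 0.961 in IR-3W, 0.928 to 0.968 in IR-7W and 0.963 to 0.977 in normal tissue. The steps were tested on simulated data. Alternatives were normexp background correction (offset 50; on median rather than the planned mean signals), quantile normalization, other filters, array weights, fits of 2 groups, slide and replicate blocks, and each array left out. The number of arrays limits the precision.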

Additional observations from a re-analysis of the deposited data

Results flagged for a closer look

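Efemp1 on probe A_44_P173151 stood at -4.22 in IR-3W 2, while the next lowest IR-3W carcinoma stood at -2.75. The gap to the nearest sample was 0.8437 of the group's range, past Dixon's critical value of 0.829 for 4 samples. Across the 26 groups of 4 or 6 arrays tested this way 1 was past it, and chance passes about 1 in 20. The other Efemp1 probe was also lowest in IR-3W 2 among IR-3W carcinomas, at -1.38. Without IR-3W 2 the A_44_P173151 difference from normal tissue was -2.76 and still passed.

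Mfap4 differed between the carcinoma groups, with a difference of 2.88 for IR-3W minus IR-7W by limma (adjusted p = 0.0389), 4 of 4 IR-3W carcinomas lying above 6 of 6 IR-7W carcinomas. Within slide 2 the difference was 1.64 and did not pass.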

How the results depend on the processing

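Of 911 recomputed differences, 823 kept their direction and side of the threshold, 34 lost a call, 30 gained one and 24 turned sign. The cause of these changes was not tested. Leaving out an array of the group outside a comparison, or changing the filter, leaves a probe's difference as it was. Such settings can change only its adjusted p, so part of this agreement was fixed in advance. Passing probes of the set were 2 for IR-3W minus normal, 5 for IR-7W minus normal and 1 for IR-3W minus IR-7W, and in that order for all probes 4295, 6097 and 231. For IR-3W minus normal the set gave 5 with array weights and 1 with only the 2 groups, with 1 probe per gene (of 9) and with the replicate block. For IR-7W minus normal it gave 3 of 9 with 1 probe per gene, and 6 of 13 both with normexp and with array weights. Besides the gained calls given with each gene, Fbn1 on both probes and Mfap5 passed for IR-3W minus IR-7W with normexp, with probes well above background on all arrays, with array weights and with the random slide block. That block used a correlation of -0.0583 within slides, so its calls do not allow for arrays of a slide being alike. Array weights gained Fbn1 A_44_P996061 (2.03) and Emilin1 A_44_P556528 (1.82) for IR-3W minus normal and Efemp2 (1.51) for IR-3W minus IR-7W. IR-3W 4, the highest sample on these probes, had a weight of 2.44, against 0.56, 0.68 and 0.238 for IR-3W 1 to 3. Normal tissue 2 had a weight of 3.11, so calls gained with array weights lean on few arrays. Normexp gained Fbln5 (1.15) for IR-3W minus IR-7W. For IR-3W minus IR-7W the set gave 6 with normexp and 7 with array weights. It gave 4 with probes well above background on all arrays and 5 with slide as a random block. With only the 2 groups, slide 2 alone, slide as a fixed block or the replicate block it gave 0. In these fits 7, 0, 3 and 6 probes had an unadjusted p under 0.05. With an array left out it ranged from 1 to 3, 3 to 5 and 0 to 5.

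All probes gave, in the same order of comparisons, 1319, 14876 and 8289 with normexp, 12265, 15316 and 126 without a filter, 2867, 3901 and 224 with probes above background everywhere, 9240, 11123 and 1305 with array weights, 2011, 7915 and 32 with 2 groups, 390 (IR-3W minus IR-7W) with slide as a random block and 152 with deposited values. Slide 2 alone and slide as a fixed block gave 0 (unadjusted 821 and 1025). With an array left out they ranged from 2419 to 5740, 3531 to 7726 and 33 to 674. The share of calls that were higher, 63.4, 58.6 and 79.2%, was 66.9, 16 and 91.2% with normexp, 26, 26.3 and 85.7% without a filter, 47.8, 45.2 and 77.7% with probes above background everywhere, and 52.5, 51.8 and 65.6% with array weights. Normexp moved the median of all probes to -0.23, -0.55 and 0.37 and that of the set to 0.28, -0.93 and 1.06, while the 2 other filters moved that of all probes to between -0.37 and -0.13 against normal tissue.

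The replicate block used numbers that no label gives as pairing samples. It gave 1, 2 and 0 for the set and 1868, 2659 and 0 for all probes (unadjusted 2358 for the last). Under it Fbn1 A_44_P179745 and Fbln5 missed the threshold for IR-7W minus normal (adjusted p = 0.066 and 0.0754), as did both Efemp1 A_43_P10333 calls (0.0668 and 0.127) and Mfap4 (0.248).

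No difference that turned sign had passed the threshold. For IR-3W minus normal, Fbn1 A_44_P179745 was -0.15 and Fbln1 A_42_P801831 -0.14 with the replicate block, and Fbln1 A_44_P690171 was 0.18 with normexp, 0.93 with array weights and 0.024 with the random slide block. With an array left out, Fbn1 A_44_P179745 ranged from -0.37 to 0.49, Fbln1 A_42_P801831 from -0.56 to 0.69 and A_44_P690171 from -0.54 to 0.59 for IR-3W minus normal. Emilin1 ranged from -0.56 to 0.73 and -0.64 to 0.53 for IR-7W minus normal, and Efemp1 A_43_P10333 from -0.87 to 0.16 for IR-3W minus IR-7W. Efemp1 A_44_P173151 was 0.14 for IR-3W minus IR-7W with normexp.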
